A study of Mus musculus with 28 samples.

Results

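Gene expression of leukocytes from MC38 tumours of mice lacking Nrp1 in Foxp3-expressing cells was compared with that of control mice at day 18 of tumour growth. The comparison uses 4 of the 28 arrays of the series, chosen by their titles: 2 arrays of Nrp1-deleted hosts and 2 of control hosts. Nrp1-deleted hosts carried floxed Nrp1 alleles together with a Cre recombinase and YFP expressed from Foxp3 (Nrp1L/LFoxp3Cre-YFP). Control hosts carried the same Foxp3-driven Cre and YFP with an intact Nrp1 gene (Foxp3Cre-YFP). Cre was therefore present in both groups, and deletion is limited to cells that express Foxp3, whereas other Nrp1-expressing leukocytes keep the gene. MC38 is a mouse colon carcinoma line. The cells were sorted by CD45, a surface protein of haematopoietic cells, and lysed without culture, and nothing in the labels states that the 2 arrays of a group came from separate mice. The spread behind the p-values is that between arrays of 1 group, pooled over all groups of the series, and it may be technical. The sources used here do not give the hosts' age.

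Nrp1 encodes neuropilin-1, a co-receptor for semaphorins and VEGF that regulatory T cells (Treg) carry on their surface. Treg restrain other T cells, and in tumours neuropilin-1 is known to help them keep that suppressive state. In RNA of mixed leukocytes, fewer cells of a type and less RNA per cell cannot be told apart. Values are log2 RMA expression values, and differences are log2 differences, Nrp1-deleted minus control, given ± their standard error (SE). Adjusted p-values are from limma with Benjamini-Hochberg adjustment over all 17097 genes, and a gene rose or fell where the adjusted p was under 0.05.

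Nrp1 had values of 9.26 and 9.36 in Nrp1-deleted hosts, against 9.88 and 10.02 in control hosts. Both arrays of Nrp1-deleted hosts lay below both control arrays, but the difference of -0.64 ± 0.23 did not pass (adjusted p = 0.103, 95% interval -1.11 to -0.18). The probe set may lie outside the deleted stretch, and the level in mixed leukocytes includes cells without Cre, so it says little about the labels. Foxp3, the transcription factor that defines Treg, lay below the median of all values (3.64) on every array, at 3.15 and 3.0 in Nrp1-deleted hosts and 3.43 and 3.07 in control hosts. The Cre-expressing population could not be followed through it. Ptprc, the gene for CD45, had values of 12.34 and 12.30 in Nrp1-deleted hosts and 12.04 and 12.13 in control hosts, so the sorted marker was abundant on all 4 arrays. Arrays of a group correlated at 0.993 to 0.994 across genes, and arrays of different genotypes at 0.984 to 0.985. Nrp1-deleted replicate 1 stood apart in 2 genes. Its value of Hba-a1, an alpha-globin gene of red cells, was 10.63, against 8.15 on Nrp1-deleted replicate 2 and 8.56 and 8.28 in control hosts, and its value of the Y-linked gene Eif2s3y was 6.47, against 8.74 on replicate 2 and 8.66 and 8.39 in control hosts.

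Of 17097 genes, 917 (5.36%) changed, 534 (3.12%) higher and 383 (2.24%) lower in Nrp1-deleted hosts, and the median difference of all genes was -0.06. The differences of 6810 genes lay above 0, which is the background for counts by sign. At least a 2-fold change was found for 205 higher (1.2%) and 129 lower genes (0.755%). Both Nrp1-deleted arrays lay above both control arrays in 19.7% of all genes and below both in 32.6%. Groups without overlap are therefore common and are no evidence by themselves. The shares of 3.12% higher and 2.24% lower are the background for the list counts below. An unadjusted p under 0.05 was found for 3083 of 17097 genes in either direction, the background for list counts at that threshold. The split between rises and falls depended on the scaling. Centring each array on its 75th percentile gave 425 higher and 619 lower genes and moved the median difference to -0.11. Without Nrp1-deleted replicate 1 or 2, or control replicate 1 or 2, the count fell to 315, 278, 265 and 262 genes, with a single array left in 1 group.

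Among the 15 largest rises, genes of T cells stood beside genes of inflammation and of myeloid cells. Il6, the gene for the inflammatory cytokine interleukin-6, had values of 8.56 and 7.69 in Nrp1-deleted hosts, against 4.92 and 4.99 in control hosts. The groups did not overlap, and the difference of 3.17 ± 0.49 amounts to 8.98-fold (adjusted p = 0.00044). Dmkn, which encodes dermokine, a secreted protein known from skin, had the largest rise, with 7.24 and 6.06 in Nrp1-deleted hosts against 3.33 and 2.91 in control hosts (3.53 ± 0.59, adjusted p = 0.000974). Its control values lay below the median of all values, so the size of its fold is uncertain. Slpi, a leukocyte protease inhibitor, had 9.78 and 9.41 in Nrp1-deleted hosts against 7.24 and 6.95 in control hosts (2.50 ± 0.43, adjusted p = 0.00115). Arg2, the mitochondrial arginase, had 8.15 and 7.51 in Nrp1-deleted hosts against 5.26 and 5.29 in control hosts (2.56 ± 0.66, adjusted p = 0.0243). Arg1, the cytosolic arginase of tumour macrophages, was at 12.84 on both Nrp1-deleted arrays and at 12.64 on both control arrays and did not pass (adjusted p = 0.911).

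The promoter window of Il6 is shown because its rise kept the call in every alternative run. RefSeq (GRCm38.p6) places it at chr5:30012864-30013163 on the plus strand, a window that spans the transcript start. Capitals mark the kappaB motif of NF-kappaB factors, searched on both strands as GGG, any 2 bases and TTTCC, which 1.63% of 32851 promoter windows hold. The match begins 44 bases before the start. The promoter window of Tmem176a, a gene that fell, holds the same letters on the reverse strand, at -86 from its start. Both matches are a description of the letters only.
Il6 promoter: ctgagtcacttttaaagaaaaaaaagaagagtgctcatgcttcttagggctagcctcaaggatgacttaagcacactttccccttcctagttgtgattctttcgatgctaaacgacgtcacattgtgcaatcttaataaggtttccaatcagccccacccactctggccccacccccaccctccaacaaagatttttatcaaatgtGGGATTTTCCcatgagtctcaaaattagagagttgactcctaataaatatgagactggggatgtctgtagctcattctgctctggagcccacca

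T lymphocyte genes made up much of the rest of the 15 rises. Cd28, the costimulatory receptor of T cells, had 9.24 and 9.79 in Nrp1-deleted hosts against 6.69 and 7.10 in control hosts (2.62 ± 0.43, adjusted p = 0.000764). Bcl11b, a transcription factor of T cell identity, had 6.95 and 7.46 in Nrp1-deleted hosts against 4.22 and 4.62 in control hosts (2.78 ± 0.41, adjusted p = 0.0003). Gzmk, granzyme K of cytotoxic lymphocytes, had 7.63 and 8.46 in Nrp1-deleted hosts against 4.97 and 5.44 in control hosts (2.84 ± 0.60, adjusted p = 0.00646). In each of these genes both Nrp1-deleted arrays lay well above both control arrays, and replicate 2 was the higher of the pair. Cd27, a costimulatory receptor of the TNF receptor family, rose by 2.65 ± 0.45, and Satb1, a chromatin organiser of developing and resting T cells, by 2.53 ± 0.34. The other rises among the 15 were Plcxd2, a phospholipase C domain protein (2.66 ± 0.34), the RNA uridylyltransferase Tut4 (2.65 ± 0.49), the endosomal sorting subunit Vps37b (2.59 ± 0.30), Gramd3 (2.55 ± 0.35), the Arf GTPase-activating protein Arap2 (2.52 ± 0.29) and the ubiquitin ligase Rnf125 (2.51 ± 0.38), each with an adjusted p of 0.00216 or less. Arg2 no longer passed when any 1 of the 4 arrays was left out, nor with robust empirical Bayes. Gzmk was lost without Nrp1-deleted replicate 2 or control replicate 1, and the mean over the 4 probe sets of Bcl11b was smaller (1.7).

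The 15 largest falls held genes of the extracellular matrix and of myeloid cells, and Cbr2, a carbonyl reductase, had the largest (-2.70 ± 0.68). Col6a1 and Col6a2, chains of collagen VI, fell by 2.63 ± 0.32 and 2.15 ± 0.30. Col6a1 had values of 4.47 and 4.57 in Nrp1-deleted hosts, against 7.01 and 7.28 in control hosts (adjusted p = 4.17e-05). Postn, the matrix protein periostin, had 4.13 and 3.43 in Nrp1-deleted hosts against 5.89 and 5.90 in control hosts (-2.12 ± 0.33, adjusted p = 0.00043). In both genes all values of Nrp1-deleted hosts lay below all control values. Col5a2, a chain of collagen V (-2.30 ± 0.36), the matricellular proteins Thbs2 (-2.17 ± 0.34) and Ccn1 (-2.30 ± 0.44), dermatopontin, Dpt (-1.79 ± 0.29), and the secreted protease Htra3 (-1.85 ± 0.37) fell too, as did the transcriptional coactivator Eya4 (-1.76 ± 0.18). The largest adjusted p of these 6 was 0.00435. The mean over several probe sets was nearer to 0 for Col5a2 (-1.42), Htra3 (-1.17) and Eya4 (-0.79), so the size of these falls rests on the probe set. Ccn1 lost its call without Nrp1-deleted replicate 1, and Htra3 without Nrp1-deleted replicate 2 or control replicate 1.

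Tmem176a and Tmem176b, neighbouring genes for membrane channel proteins of dendritic cells and macrophages, fell alike. Tmem176a had 7.46 and 7.27 in Nrp1-deleted hosts against 9.59 and 9.58 in control hosts, which is 4.68-fold lower (-2.23 ± 0.26, adjusted p = 2.47e-05). Tmem176b had 8.48 and 8.28 in Nrp1-deleted hosts against 10.51 and 10.45 in control hosts, which is 4.29-fold lower (-2.10 ± 0.24, adjusted p = 2.47e-05). The arrays of each group lay close together in both genes, the groups were far apart, and the falls differed from each other by less than their SE. RefSeq places the start of Tmem176a on the plus strand of chromosome 6 and that of Tmem176b on the minus strand beside it. The promoter window of Tmem176a is shown because both genes moved alike: it covers chr6:48841233-48841532 (GRCm38.p6), and its capitals mark the 155 bases that it shares with the window of Tmem176b at chr6:48841088-48841387.
Tmem176a promoter: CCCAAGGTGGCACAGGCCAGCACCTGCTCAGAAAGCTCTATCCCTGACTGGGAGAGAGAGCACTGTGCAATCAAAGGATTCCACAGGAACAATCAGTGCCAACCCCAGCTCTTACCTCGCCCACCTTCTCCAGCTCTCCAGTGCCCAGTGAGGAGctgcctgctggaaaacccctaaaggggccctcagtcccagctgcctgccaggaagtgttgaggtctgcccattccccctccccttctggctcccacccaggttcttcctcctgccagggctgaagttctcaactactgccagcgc

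The remaining 4 of the 15 falls had larger SEs. Folr2, the folate receptor beta of resident macrophages, had 5.86 and 6.61 in Nrp1-deleted hosts against 8.21 and 7.95 in control hosts (-1.84 ± 0.45, adjusted p = 0.0178). Fcrls, a scavenger receptor known from microglia, had 9.17 and 7.52 in Nrp1-deleted hosts against 10.54 and 10.19 in control hosts (-2.02 ± 0.55, adjusted p = 0.0335). Cbr2 had 4.20 and 3.38 in Nrp1-deleted hosts against 6.57 and 6.40 in control hosts (adjusted p = 0.0225). The groups did not overlap, but the Nrp1-deleted arrays differed more from each other than the control arrays did in each of these genes. Klra17, a member of the Ly49 receptor family, whose members are alike in sequence, fell by 2.25 ± 0.54 (adjusted p = 0.0156). Cbr2 lost its call when any 1 of the 4 arrays was left out and with robust empirical Bayes. Fcrls was lost without Nrp1-deleted replicate 2 or either control array, without the intensity trend and with robust empirical Bayes. Folr2 and Klra17 were lost without Nrp1-deleted replicate 1 or either control array, and Folr2 with a replicate block.

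**Figure D1:**
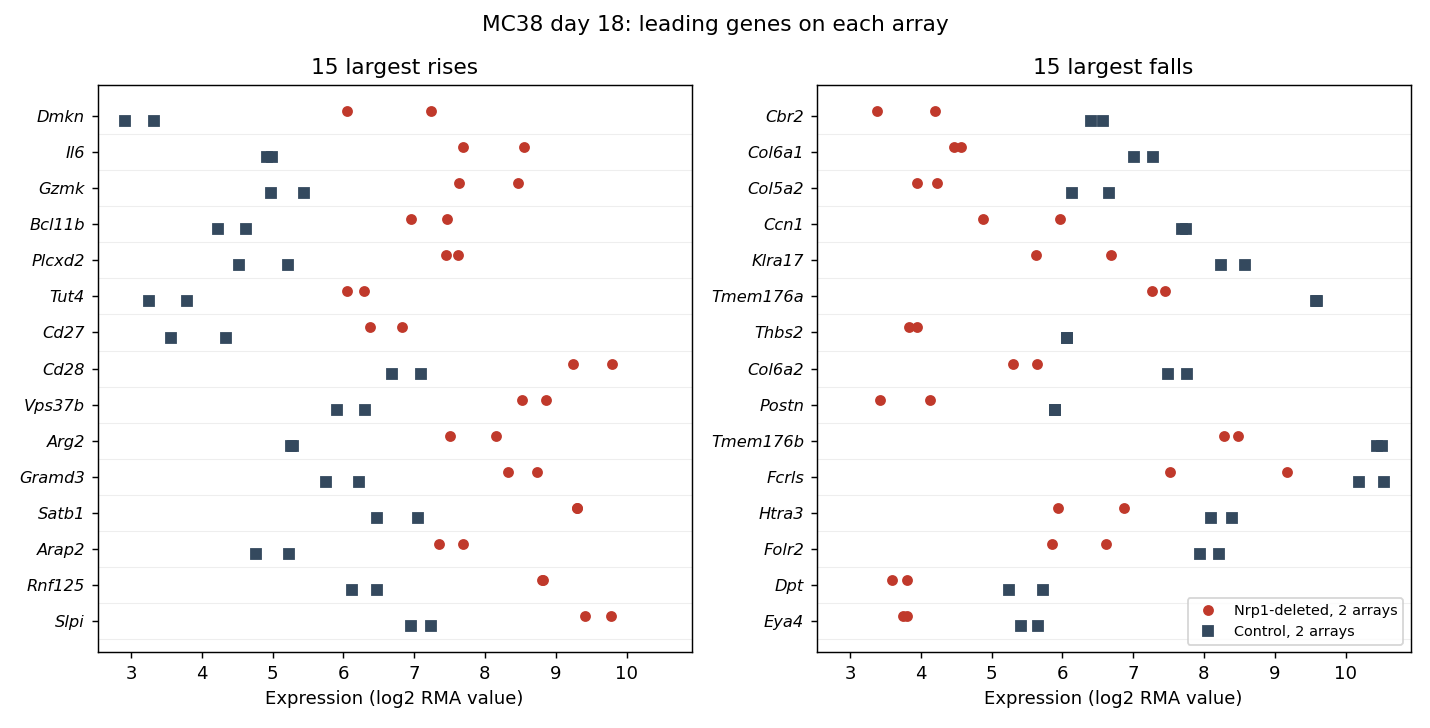
Log2 RMA values of the 15 largest rises (left panel) and 15 largest falls (right panel) on each MC38 day 18 array, with circles for the 2 Nrp1-deleted arrays and squares for the 2 control arrays. The groups do not overlap in any of these genes, which were picked as the largest passing differences. Fcrls has the widest gap between the Nrp1-deleted arrays, at 9.17 and 7.52.

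T cell genes rose as a group. Of 17 measured genes of the T cell list, 14 rose and 0 fell, against 3.12% of all genes that rose, and the list's median difference was 1.61, against -0.06 for all genes. The mean level of the list was 7.72 and 8.23 in Nrp1-deleted hosts and 6.14 and 6.53 in control hosts. Cd3d, a chain of the T cell receptor complex, had 10.00 and 10.77 in Nrp1-deleted hosts against 8.68 and 8.96 in control hosts (1.56 ± 0.40, adjusted p = 0.0245). Icos, an inducible costimulatory receptor, had 9.52 and 10.10 in Nrp1-deleted hosts against 7.55 and 7.90 in control hosts (2.08 ± 0.56, adjusted p = 0.0297), and Cd247, the zeta chain of the receptor complex, had 7.38 and 7.58 in Nrp1-deleted hosts against 5.55 and 5.65 in control hosts (1.88 ± 0.43, adjusted p = 0.0114). Both Nrp1-deleted arrays lay above both control arrays in all 17 genes, an order that 19.7% of all genes had. Thy1, a surface protein of T cells, was 1.02 ± 0.39 higher and did not pass (adjusted p = 0.148). Without Nrp1-deleted replicate 1 or 2, or control replicate 1 or 2, the count of rises was 7, 2, 2 and 5 of 17, and with a replicate block 6. Only Cd28 and Bcl11b of the 14 passed in every one of the leave-one-out fits.

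Genes of CD8 and cytotoxic lymphocytes showed 8 rises and 0 falls among 16, against 3.12% of all genes that rose, with a median difference of 1.38. Cd8a and Cd8b1, which encode CD8 alpha and beta, rose by 1.67 ± 0.46 and 1.82 ± 0.49. Cd8a had 8.91 and 10.00 in Nrp1-deleted hosts, against 7.50 and 8.07 in control hosts (adjusted p = 0.0346). Fasl, the ligand of the death receptor Fas, had 8.85 and 9.17 in Nrp1-deleted hosts against 6.38 and 6.91 in control hosts (2.36 ± 0.40, adjusted p = 0.00113). Nrp1-deleted replicate 2 was the higher of the 2 in both genes, and neither overlapped the controls. The transcription factors Tbx21 (2.28 ± 0.48) and Eomes (1.54 ± 0.40), granzyme A, Gzma (1.57 ± 0.33), and the granule protein gene Nkg7 (1.62 ± 0.42) rose, and so did Gzmk. Genes for the classical effector molecules did not pass: Ifng, interferon gamma, was 1.22 ± 0.42 higher (adjusted p = 0.0921), perforin, Prf1, 1.20 ± 0.45 higher (adjusted p = 0.135) and granzyme B, Gzmb, 0.81 ± 0.38 higher (adjusted p = 0.265). Gzmb had the high level of 11.85 and 12.30 in Nrp1-deleted hosts and 11.14 and 11.39 in control hosts, so its groups did not overlap either. The count of rises was 6, 2, 1 and 4 without Nrp1-deleted replicate 1, Nrp1-deleted replicate 2, control replicate 1 and control replicate 2, and Fasl was the 1 gene that passed in all of them.

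Of 8 inhibitory receptors, 2 rose (median difference 0.75), against 3.12% of all genes that rose. Pdcd1, the gene for PD-1, had 7.30 and 8.34 in Nrp1-deleted hosts against 5.83 and 5.97 in control hosts (1.92 ± 0.47, adjusted p = 0.0181). Ctla4, which is also abundant in Treg, had 9.14 and 10.13 in Nrp1-deleted hosts against 7.66 and 7.91 in control hosts (1.85 ± 0.54, adjusted p = 0.0476). Both were higher on Nrp1-deleted replicate 2 than on replicate 1, and both replicates lay above the controls. Lag3 was 1.71 ± 0.57 higher (adjusted p = 0.0872) and Havcr2, TIM-3, 0.18 ± 0.18 higher (adjusted p = 0.705), and neither passed. Without Nrp1-deleted replicate 1 the count was 1, and without any other of the 4 arrays 0. Of 7 genes of memory and quiescence, 3 rose, namely Satb1, Bach2, a repressor that restrains effector differentiation (1.74 ± 0.26, adjusted p = 0.000293), and the survival factor Bcl2 (0.70 ± 0.21, adjusted p = 0.047). Satb1 and Bach2 passed in every leave-one-out fit and Bcl2 in none, and the mean over the 3 probe sets of Bach2 was 0.98.

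NK cell genes showed 4 rises and 0 falls among 9 (median difference 1.00), against 3.12% of all genes that rose. Il2rb, the interleukin-2 receptor beta chain shared by NK and T cells, had 10.23 and 10.49 in Nrp1-deleted hosts against 8.60 and 9.09 in control hosts (1.51 ± 0.34, adjusted p = 0.0109). The receptor genes Klrd1 (1.32 ± 0.32), Klrc1 (1.54 ± 0.44) and Klra7 (1.00) rose as well, and CD8 T cells also express several of these. The mean over the 2 probe sets of Klra7 was 0.48 and did not pass (adjusted p = 0.459). Ncr1, an activating receptor that defines NK cells, had 6.38 and 6.37 in Nrp1-deleted hosts and 5.07 and 6.02 in control hosts, and its difference of 0.83 ± 0.38 did not pass (adjusted p = 0.239). The count was 2, 0, 0 and 2 without Nrp1-deleted replicate 1, Nrp1-deleted replicate 2, control replicate 1 and control replicate 2, and 1 with a replicate block. Of 12 Treg genes, 2 rose (median difference 0.74), Ctla4 and Ikzf2, the gene for the transcription factor Helios (1.26 ± 0.35, adjusted p = 0.0357). Tnfrsf18, the gene for GITR, was 1.03 ± 0.36 higher (adjusted p = 0.0995) and Il10, an anti-inflammatory cytokine also made by macrophages, 0.96 lower (-0.96 ± 0.44, adjusted p = 0.245). Leaving out any 1 of the 4 arrays ended both Treg calls, and the mean over the 2 probe sets of Ikzf2 was 0.61 and did not pass (adjusted p = 0.299). B and plasma cell genes showed 0 calls by limma among 12, and 0 at an unadjusted p under 0.05.

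**Figure D2:**
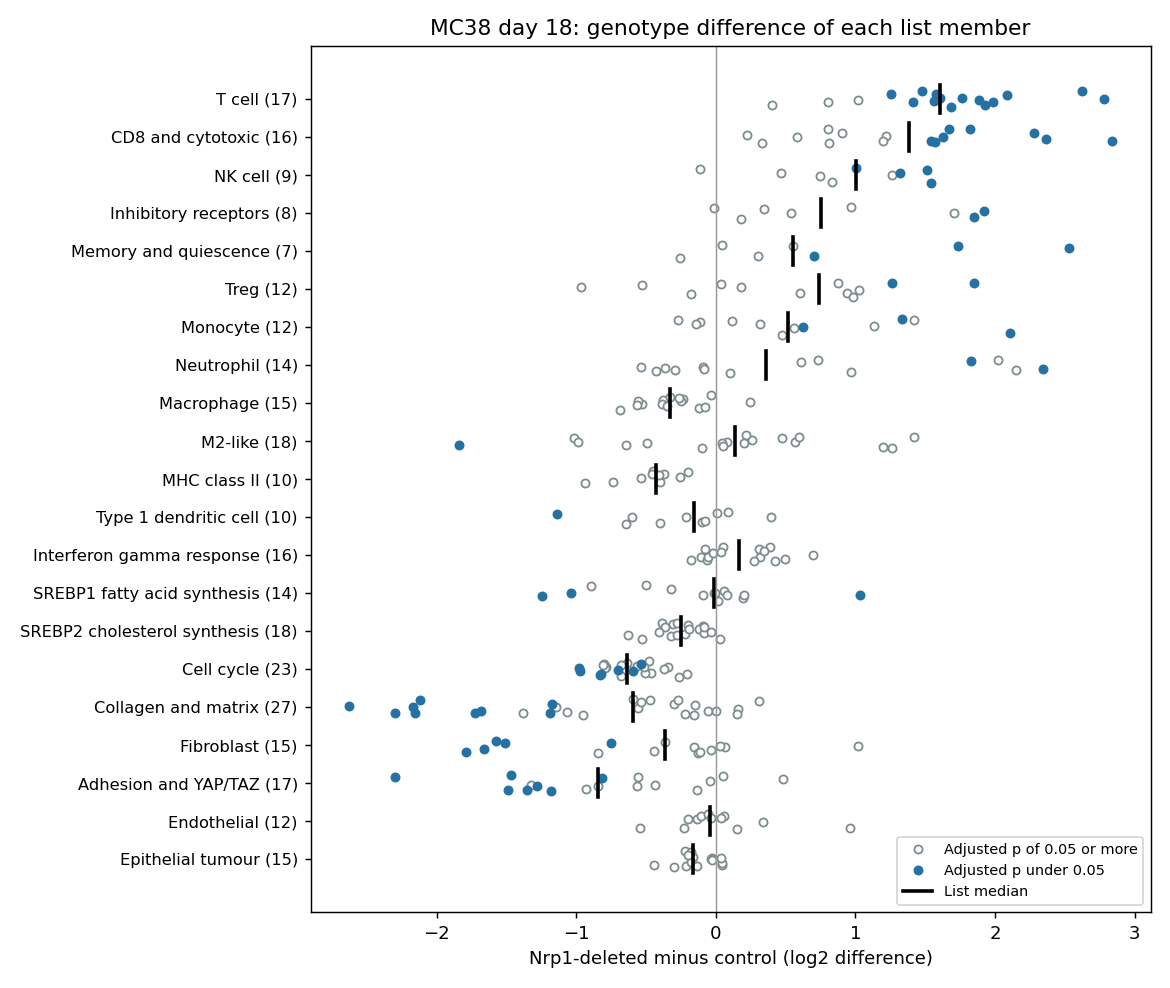
Each circle is the log2 difference, Nrp1-deleted minus control, of 1 list member at MC38 day 18, filled where the adjusted p was under 0.05, with a bar at the list median and the number of measured members in brackets. The T cell and CD8 lists lie to the right, at medians of 1.61 and 1.38, and the adhesion, cell cycle and collagen lists to the left, at -0.85, -0.64 and -0.59.

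Some monocyte genes rose, and few neutrophil genes passed. Of 12 monocyte genes, 3 rose and 0 fell (median difference 0.52), against 3.12% of all genes that rose. Plac8, a gene of inflammatory monocytes, had 12.40 and 12.37 in Nrp1-deleted hosts against 10.89 and 11.21 in control hosts (1.34 ± 0.19, adjusted p = 0.000254). Hp, haptoglobin, had 9.48 and 8.09 in Nrp1-deleted hosts against 6.66 and 6.70 in control hosts (2.11 ± 0.50, adjusted p = 0.0148). Nr4a1, a nuclear receptor of patrolling monocytes and an activation gene of T cells, rose by 0.62 ± 0.17 (adjusted p = 0.03). Of 14 neutrophil genes, 2 rose and 0 fell (median difference 0.36), the collagenase Mmp8 (2.34 ± 0.67, adjusted p = 0.042) and the protease inhibitor Stfa2l1 (1.83 ± 0.53, adjusted p = 0.0471). Differences of 6 of the 14 lay below 0, and nothing is read about the neutrophil list. S100a9, a subunit of calprotectin, had 9.68 and 8.32 in Nrp1-deleted hosts against 7.28 and 6.41 in control hosts, and its difference of 2.15 ± 0.87 did not pass (adjusted p = 0.17). Nrp1-deleted replicate 1 was the higher of the 2 for Hp, S100a9 and Il6, whereas replicate 2 was the higher for Cd8a and Pdcd1. Replicate 1 was also the array with the high Hba-a1 value, and the part of this in the result was not tested. Without Nrp1-deleted replicate 1 or 2, or control replicate 1 or 2, the monocyte count was 1, 2, 1 and 1 and the neutrophil count 0, 1, 0 and 0, and Plac8 passed in all 4 fits.

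Macrophage identity genes showed 0 calls by limma among 15, with 2 lower genes at an unadjusted p under 0.05. Their median difference was -0.33, and 14 of 15 lay below 0. Of all 17097 genes, 6810 lay above 0, so differences below 0 were the more common. Adgre1, an adhesion receptor that marks macrophages, had 10.81 and 10.48 in Nrp1-deleted hosts against 11.38 and 11.28 in control hosts (-0.68 ± 0.32, adjusted p = 0.264). C1qa, a complement subunit of macrophages, had 12.56 and 12.54 in Nrp1-deleted hosts against 12.89 and 12.87 in control hosts (-0.33 ± 0.37, adjusted p = 0.741), and Csf1r, the receptor for the macrophage growth factor, 10.11 and 10.03 in Nrp1-deleted hosts against 10.30 and 10.31 in control hosts (-0.24 ± 0.21, adjusted p = 0.637). Values of the 2 genotypes did not overlap in these genes, but the differences were small against the spread of the fit over all groups. With the spread taken from the 4 arrays alone, 9 of the 15 were called lower and 1 higher. That fit called 938 of all genes lower and 924 higher, more than the main fit did. Of 18 M2-like genes, 1 fell, Folr2, at a list median of 0.14. Mrc1, the mannose receptor, had 9.81 and 9.16 in Nrp1-deleted hosts against 10.70 and 10.30 in control hosts and did not pass (-1.02 ± 0.59, adjusted p = 0.388).

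Genes of antigen presentation by MHC class II were all lower without a call. The 10 genes had differences from -0.94 to -0.20 (median -0.43), 0 passed by limma and 3 were lower at an unadjusted p under 0.05. H2-Ab1, the beta chain of I-A, had 12.85 and 13.02 in Nrp1-deleted hosts against 13.27 and 13.41 in control hosts (-0.41 ± 0.25, adjusted p = 0.425). Ciita, the transactivator of the class, had 6.94 and 7.29 in Nrp1-deleted hosts against 7.79 and 7.91 in control hosts (-0.74 ± 0.32, adjusted p = 0.205). Both Nrp1-deleted arrays lay below both control arrays in all 10 genes, an order that 32.6% of all genes had. The fit on the 4 arrays alone called 9 of 10 lower, and it called 938 of all genes lower. Of 10 genes of type 1 dendritic cells, 1 fell, the transcription factor Batf3, with 7.17 and 7.25 in Nrp1-deleted hosts against 8.24 and 8.46 in control hosts (-1.14 ± 0.27, adjusted p = 0.0158). Its call was lost without any 1 of the 4 arrays. Of 12 mature dendritic cell genes 1 fell, Tmem176a, at a list median of 0.05. MHC class I (10 genes) had 0 calls, and 0 at an unadjusted p under 0.05.

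Responses to interferon gamma had 0 calls by limma among 16 genes, and 3 were higher at an unadjusted p under 0.05. Cxcl9, a chemokine induced by interferon gamma, had 12.57 and 12.74 in Nrp1-deleted hosts and 12.69 and 12.84 in control hosts, so the groups overlapped (95% interval of the difference -0.54 to 0.32). Cd274, the gene for PD-L1, had 10.42 and 10.52 in Nrp1-deleted hosts against 9.73 and 9.82 in control hosts (0.69 ± 0.25, adjusted p = 0.114). Of 17 type I interferon genes 1 fell, Oas2, an antiviral sensor of double-stranded RNA (-0.85 ± 0.18, adjusted p = 0.00567), at a list median of -0.15. Its call was lost without Nrp1-deleted replicate 1 or control replicate 2. Of 16 inflammatory cytokine genes, Il6 rose and Ccl8, a monocyte chemokine, fell. Ccl8 had 8.98 and 9.40 in Nrp1-deleted hosts against 10.58 and 11.07 in control hosts (-1.64 ± 0.46, adjusted p = 0.036), a call lost without any 1 of the 4 arrays. Il1b, the gene for interleukin-1 beta, was at 12.82 and 12.83 in Nrp1-deleted hosts against 12.37 and 12.25 in control hosts and did not pass (adjusted p = 0.615). Among 10 T helper cytokine genes 0 passed by limma and 3 were higher at an unadjusted p under 0.05. Il17a had 6.21 and 6.36 in Nrp1-deleted hosts against 4.52 and 4.59 in control hosts, with no overlap, and a wide SE (1.73 ± 0.79, adjusted p = 0.24).

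Lipid gene lists held few calls. Of 14 targets of SREBP1, the factor that drives fatty acid synthesis, 2 fell and 1 rose (median difference -0.01). Fads2, the delta-6 desaturase of polyunsaturated fatty acids, had 4.78 and 4.47 in Nrp1-deleted hosts against 5.98 and 5.77 in control hosts (-1.25 ± 0.27, adjusted p = 0.00931). Fads1, the delta-5 desaturase beside it on chromosome 19, had 7.84 and 7.66 in Nrp1-deleted hosts against 8.84 and 8.75 in control hosts (-1.04 ± 0.22, adjusted p = 0.0059). Neither overlapped. Scd1, the stearoyl-CoA desaturase, was 0.89 lower and did not pass (-0.89 ± 0.35, adjusted p = 0.15), and Acss2, an acetyl-CoA synthetase, rose (1.03, adjusted p = 0.0477). The falls of Fads1 and Fads2 were lost without Nrp1-deleted replicate 2 or control replicate 1, the rise of Acss2 without any 1 of the 4 arrays, and means over probe sets were -0.62 for Fads1, whose call was then lost (adjusted p = 0.0563), and -0.73 for Fads2. Cholesterol synthesis genes, targets of SREBP2, had 0 calls by limma among 18 and 2 lower genes at an unadjusted p under 0.05, though 17 of 18 lay below 0 (median -0.25). Of 17 lipid uptake and efflux genes, 1 rose, Olr1, a receptor for oxidised LDL, with 6.03 and 5.02 in Nrp1-deleted hosts against 4.0 and 3.29 in control hosts (1.88 ± 0.52, adjusted p = 0.0365). That call was lost without any 1 of the 4 arrays. Cd36, a fatty acid receptor, had 8.74 and 8.69 in Nrp1-deleted hosts against 7.45 and 7.45 in control hosts and missed the threshold (1.27 ± 0.38, adjusted p = 0.0551).

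Cell cycle genes were lower. All 23 had differences below 0, 7 fell and 0 rose, and the median was -0.64, against -0.06 for all genes. Of all genes, 2.24% fell, and 6810 of 17097 had differences above 0. Cdk1, the kinase that starts mitosis, had 8.16 and 8.87 in Nrp1-deleted hosts against 9.46 and 9.54 in control hosts (-0.98 ± 0.27, adjusted p = 0.0312). Bub1b, a kinase of the spindle checkpoint, had 6.68 and 6.92 in Nrp1-deleted hosts against 7.79 and 7.75 in control hosts (-0.97 ± 0.20, adjusted p = 0.00622), and Mcm7, a subunit of the replicative helicase, 8.21 and 8.43 in Nrp1-deleted hosts against 8.96 and 9.09 in control hosts (-0.70 ± 0.15, adjusted p = 0.00822). Both Nrp1-deleted arrays lay below both control arrays in these genes and in 22 of the 23, an order that 32.6% of all genes had. Birc5 (survivin), Tyms (thymidylate synthase), Mcm2 and Mcm3 completed the 7, and Mki67, the proliferation marker Ki-67, had 8.83 and 9.05 in Nrp1-deleted hosts against 9.34 and 9.56 in control hosts and did not pass (-0.51 ± 0.23, adjusted p = 0.219). The count was 0, 3, 1 and 0 without Nrp1-deleted replicate 1, Nrp1-deleted replicate 2, control replicate 1 and control replicate 2, 2 with a replicate block, and 20 with the 4 arrays alone. The fit on the 4 arrays alone called 938 of all genes lower, more than the main fit did. The mean over probe sets was nearer to 0 for Bub1b (-0.60, adjusted p = 0.072) and Tyms (-0.17, adjusted p = 0.623), and neither passed.

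The promoter window of Cdk1 is shown as the member with the largest fall in the list, at chr10:69352863-69353162 on the minus strand (RefSeq, GRCm38.p6). Capitals mark the E2F letters TTTNNCGC (5.17% of 32851 windows), the cell cycle homology region TTTGAA (17.9% of windows) and CCAAT, printed here as its reverse (37.4% of windows), all searched on both strands and none overlapping here. Of the 20 cell cycle genes with a window, 6 held the E2F letters, 10 the cell cycle homology region and 18 CCAAT in some window, against 5.93%, 20.2% and 41.1% of all genes. Of the 7 genes that fell, 4, 3 and 5 held them, and such a match shows no binding.
Cdk1 promoter: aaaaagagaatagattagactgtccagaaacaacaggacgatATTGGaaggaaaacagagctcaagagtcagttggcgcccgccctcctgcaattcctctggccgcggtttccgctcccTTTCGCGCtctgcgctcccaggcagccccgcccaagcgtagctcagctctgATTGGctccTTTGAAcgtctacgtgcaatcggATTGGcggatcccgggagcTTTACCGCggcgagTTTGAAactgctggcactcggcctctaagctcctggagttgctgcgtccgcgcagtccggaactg

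Matrix and fibroblast genes, listed here as markers of cells without CD45, also differed between the groups. Which cells their RNA came from was not tested. Of 27 collagen and matrix genes 9 fell and 0 rose (median difference -0.59), against 2.24% of all genes that fell. The mean level of the list was 4.41 and 4.68 in Nrp1-deleted hosts against 5.47 and 5.43 in control hosts. Besides those above, Col5a1 and Col5a3 (-1.73 and -1.19) and Col4a2 (-1.17) fell, and Col3a1, the main chain of collagen III, had 8.89 and 8.92 in Nrp1-deleted hosts against 10.66 and 10.51 in control hosts (-1.68 ± 0.43, adjusted p = 0.0226). The means over probe sets were -0.90 for Col5a1 and -0.54 for Col5a3, whose call was then lost (adjusted p = 0.186). The collagen I genes Col1a1 (-0.22, adjusted p = 0.733) and Col1a2 (0.15, adjusted p = 0.747) did not pass. Col6a1, Col5a2, Thbs2, Col6a2 and Postn passed in every leave-one-out fit. The count was 5, 8, 6 and 7 without Nrp1-deleted replicate 1, Nrp1-deleted replicate 2, control replicate 1 and control replicate 2. Of 15 fibroblast genes 5 fell and 0 rose (median -0.36). Dcn, the proteoglycan decorin, had 6.94 and 7.84 in Nrp1-deleted hosts against 9.02 and 8.78 in control hosts (-1.51 ± 0.30, adjusted p = 0.00356), and Pcolce, an enhancer of collagen processing, 4.39 and 4.37 in Nrp1-deleted hosts against 5.95 and 6.14 in control hosts (-1.66 ± 0.26, adjusted p = 0.000413). Neither overlapped, and Dpt, Serpinf1 and Twist1 were the other falls. The defining receptors Pdgfra and Pdgfrb and the proteoglycan Lum were near the background, with values from 2.94 to 3.81 on the 4 arrays. The fibroblast count was 2 without Nrp1-deleted replicate 1 and 4 without each of the other 3 arrays.

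Of 17 adhesion and YAP/TAZ genes, 7 fell and 0 rose (median -0.85), against 2.24% of all genes that fell. Mean levels of the list were 4.59 and 5.21 in Nrp1-deleted hosts against 5.78 and 5.69 in control hosts. The falls included Wwtr1, the gene for the coactivator TAZ, with 3.92 and 5.34 in Nrp1-deleted hosts against 6.08 and 6.15 in control hosts (-1.49 ± 0.41, adjusted p = 0.0353). Rhox5, a homeobox gene, had 6.08 and 6.91 in Nrp1-deleted hosts against 7.99 and 7.94 in control hosts (-1.47 ± 0.43, adjusted p = 0.0476), and the integrin adaptor Fermt2 3.35 and 3.25 in Nrp1-deleted hosts against 4.85 and 4.44 in control hosts (-1.35 ± 0.37, adjusted p = 0.0355). Nrp1-deleted replicate 1 was the lower of the 2 for Wwtr1, Rhox5, Dcn and Ccn1, and neither group overlapped the other. The count was 0 without Nrp1-deleted replicate 1 and 3, 1 and 1 without Nrp1-deleted replicate 2, control replicate 1 and control replicate 2. Means over probe sets were -0.91 for Wwtr1 (adjusted p = 0.0777) and -0.55 for Fermt2 (adjusted p = 0.177), and neither passed. Endothelial genes (12) and epithelial genes (15) had 0 calls by limma, with 1 higher and 1 lower gene at an unadjusted p under 0.05. Epcam (3.65 to 4.53) and Krt8 (2.69 to 3.60) were low on all 4 arrays, and 11 of the 15 epithelial genes lay below the median of all values on each of them. The part of cells without CD45 in the differences of other genes was not tested.

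Further genes changed singly, in lists with shares called near the 3.12% higher and 2.24% lower of all genes or with counts of 1 or 2, from which nothing is read about the lists. Of 28 genes for neuropilin ligands and partners, 1 rose and 1 fell (median difference -0.16). Vegfb, a growth factor that binds neuropilin-1, had 5.08 and 4.95 in Nrp1-deleted hosts against 6.20 and 6.21 in control hosts (-1.19 ± 0.22, adjusted p = 0.00188), and passed in every leave-one-out fit. Flt1, a VEGF receptor, had 5.43 and 5.59 in Nrp1-deleted hosts against 4.28 and 4.55 in control hosts (1.10 ± 0.31, adjusted p = 0.0382), a call lost without any 1 of the 4 arrays. Neither overlapped, and Nrp2, the second neuropilin, was at 7.09 and 7.23 in Nrp1-deleted hosts against 7.09 and 7.30 in control hosts and did not pass (-0.03 ± 0.20). Of 18 immediate early genes 2 rose, Nr4a1 and Fosl2 (median 0.06). Fosl2, an AP-1 subunit, had 10.40 and 10.18 in Nrp1-deleted hosts against 8.88 and 8.64 in control hosts (1.53 ± 0.18, adjusted p = 3.53e-05), whereas Fos, another AP-1 subunit, was at 12.93 and 12.95 in Nrp1-deleted hosts against 13.11 and 13.05 in control hosts and did not pass. The mean over the 2 probe sets of Fosl2 was 0.56, at which its call was lost (adjusted p = 0.204). Of 14 glycolysis genes 2 rose, the glucose transporter Slc2a3 (1.40 ± 0.36) and Pfkp, a phosphofructokinase (0.44 ± 0.11), and of 13 hypoxia genes 1 rose, Hif1a (0.46 ± 0.13). The means over probe sets were 0.74 for Slc2a3, whose call was then lost (adjusted p = 0.141), and 0.87 for Pfkp. Pfkp and Hif1a lost their calls without any 1 of the 4 arrays and Slc2a3 without Nrp1-deleted replicate 2 or either control array. Of 18 matrix proteases Mmp8 rose and the gelatinase Mmp2 fell (-1.71 ± 0.30, adjusted p = 0.00142), of 14 TGF-beta genes the repressor Skil rose, and of 14 fatty acid oxidation genes the hydratase Echs1 fell. Among the leave-one-out fits, Skil passed only without control replicate 1, Echs1 only without Nrp1-deleted replicate 1, and Mmp2 was lost only without Nrp1-deleted replicate 2. Of 10 genes that define haematopoietic cells, Itgb2 and Cd53 rose, by 0.46 and 0.28, of which Itgb2 was lost without any 1 of the 4 arrays and Cd53 passed only without Nrp1-deleted replicate 1. Respiratory chain (18), complement (13), mast cell and basophil (9), eosinophil (6), plasmacytoid dendritic cell (6), erythroid (9), sex-linked (4) and melanocytic lists (13) had 0 calls by limma, and 1, 1, 2, 0, 0, 0, 1 and 0 genes at an unadjusted p under 0.05.

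The other MC38 days and B16.F10, a melanoma line, show how far the day 18 changes were found elsewhere. These comparisons share no arrays with MC38 day 18, but they share the estimate of spread. In MC38, Nrp1-deleted and control hosts had 2 arrays each at day 6 and 3 each at day 12, and in B16 at day 18 they had 3 each. The MC38 day 6 and day 18 arrays lay in 1 set of the deposited values and the MC38 day 12 and B16 day 18 arrays in another. The shapes of the values differ as if these sets were normalized apart, which the labels do not state. The share of genes called was 2.97% at MC38 day 6, 8.59% at MC38 day 12 and 18.8% in B16 (7.54% higher and 11.3% lower). Of the 534 genes higher at MC38 day 18, 95 were higher at MC38 day 6 (17.8% of the 534 and 56.5% of the 168 at day 6), 279 at day 12 (52.2% and 43.9% of 635) and 244 in B16 (45.7% and 18.9% of 1289). Of the 383 lower genes, 100 were lower at day 6 (26.1% and 29.4% of 340), 168 at day 12 (43.9% and 20.2% of 833) and 129 in B16 (33.7% and 6.7% of 1928). In B16, 17 of the 534 were called lower and 4 of the 383 higher.

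Of the leading falls, Col6a1, Col5a2, Ccn1, Thbs2, Col6a2, Postn, Htra3 and Dpt were called lower on all 3 MC38 days. Col5a2, Ccn1, Postn and Htra3 were also called lower in B16, and Thbs2, Col6a2 and Dpt were not. Falls among the 27 collagen and matrix genes numbered 14 at day 6, 16 at day 12, 9 at day 18 and 12 in B16. Falls among the 17 adhesion and YAP/TAZ genes numbered 8, 10, 7 and 13. The shares of all genes that fell were 1.99%, 4.87%, 2.24% and 11.3%. Col6a1 was lower by 2.63 at day 6, 3.21 at day 12 and 2.63 at day 18 (differences of -2.63, -3.21 and -2.63). In B16 its difference was 0.03, at means of 3.27 in Nrp1-deleted hosts and 3.24 in control hosts. Both lie below the median of all values, so a fall could not have been seen in B16, and the difference of -2.66 between the MC38 day 18 and B16 effects (adjusted p = 0.000258) is no test of one. Il6 was 0.45, 1.39 and 3.17 higher on the 3 MC38 days, the last 2 past the threshold, and 2.50 higher in B16. At MC38 day 6 its mean was 8.88 in Nrp1-deleted hosts and 8.42 in control hosts, and at day 18 it was 8.12 in Nrp1-deleted hosts and 4.96 in control hosts, so the day 18 controls were the low group. The difference between the day 18 and day 6 effects of Il6 did not pass (adjusted p = 0.168).

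Of the 17 T cell genes, 0 rose at day 6, where 0.983% of all genes did, 6 at day 12 (3.71%) and 14 at day 18. The medians were 0.89, 0.93 and 1.61, and 0 of the 17 had a day 18 effect that differed by limma from that at day 6 or day 12 (2 and 0 at an unadjusted p under 0.05). Of the 9 NK cell genes, 3, 2 and 4 rose on the 3 days, at medians of 1.03, 0.73 and 1.00, and 0 of the 9 had a day 18 effect that differed by limma from either other day (0 at an unadjusted p under 0.05). Of the 23 cell cycle genes, 9 fell at day 6 (1.99% of all genes), 2 at day 12 (4.87%) and 7 at day 18, and 0 of the 23 had a day 18 effect that differed by limma from either other day (0 against day 6 and 2 against day 12 at an unadjusted p under 0.05).

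The genotype effect at day 18 differed from that at day 6 in 14 of 17097 genes (0.0819%), 11 higher (0.0643%) and 3 lower (0.0175%), and 1150 genes had an unadjusted p under 0.05. B3gnt5, a glycosyltransferase of glycolipid synthesis, had 6.83 and 6.69 in Nrp1-deleted hosts against 4.43 and 4.38 in control hosts at day 18, a difference of 2.35, against 0.15 at day 6 (difference of effects 2.20, adjusted p = 0.0282). Fosl2 differed by 1.42 between the days, the orphan nuclear receptor Nr4a2 by 1.35 and the Polycomb protein Rybp by 1.40. For Fosl2, Nr4a2 and B3gnt5 the day 18 controls were the low group, and both genotypes were close at day 6. Ccl8 was 1.84 higher in Nrp1-deleted hosts at day 6 and 1.64 lower at day 18 (effects of 1.84 and -1.64, difference -3.49). Slamf6, a receptor of lymphocytes, had 6.03 and 5.53 in Nrp1-deleted hosts against 7.03 and 6.92 in control hosts at day 18 (-1.20 ± 0.21), and its effect differed from day 6 by -1.68. None of these 6 passed in any of the leave-one-out fits. The count was 0, 1, 0 and 0 without Nrp1-deleted replicate 1, Nrp1-deleted replicate 2, control replicate 1 and control replicate 2. Means over probe sets gave day 18 effects of 0.73 for Nr4a2 and -0.59 for Slamf6, whose call was then lost (adjusted p = 0.114). Against day 12, 1 gene differed (0.00585% of genes, 1206 at an unadjusted p under 0.05), the alpha-tubulin gene Tuba1a, and 0 without any 1 of the 4 arrays.

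**Figure D3:**
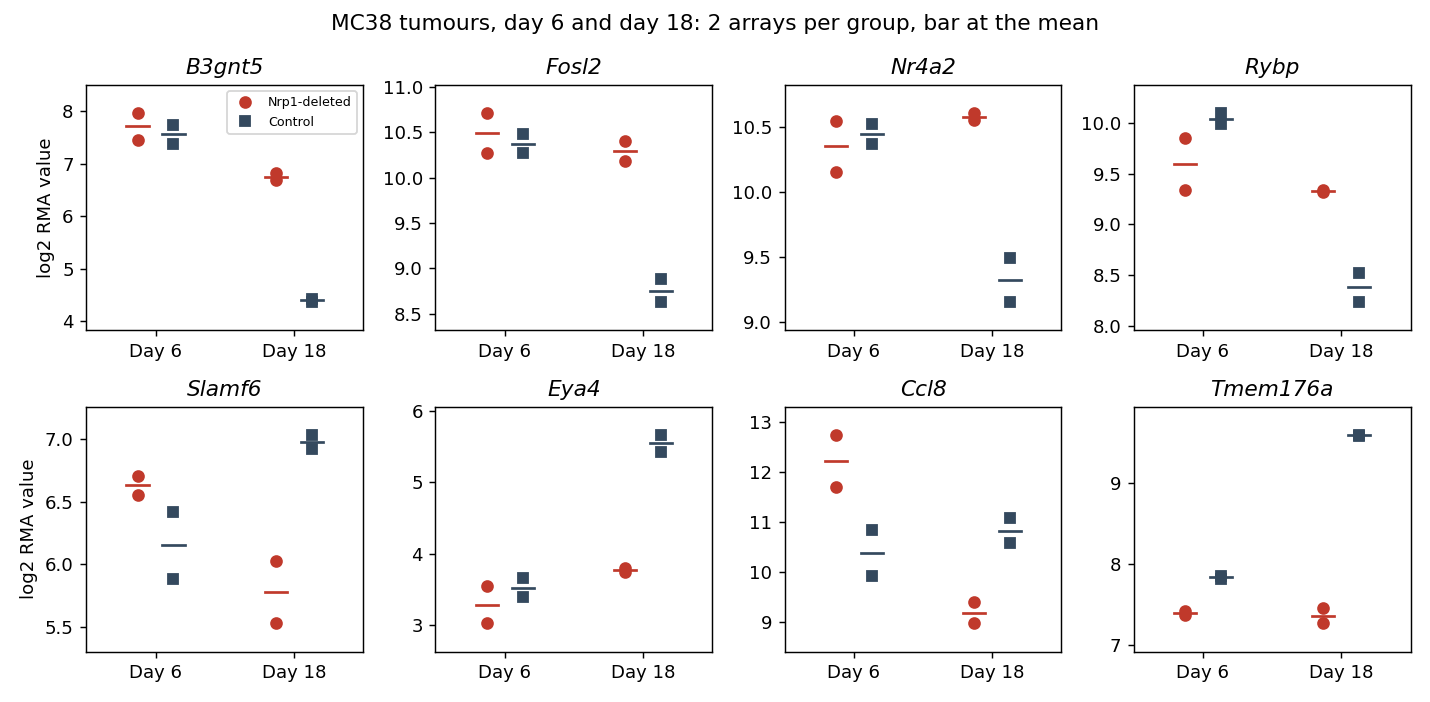
Log2 RMA values of 8 genes in MC38 tumours at days 6 and 18, with circles for Nrp1-deleted arrays, squares for control arrays (2 each) and a bar at each mean. At day 18 the control values of B3gnt5 (4.43 and 4.38), Fosl2, Nr4a2 and Rybp lie below those of Nrp1-deleted hosts, and those of Slamf6, Eya4, Ccl8 and Tmem176a lie above.

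Against B16 tumours of the same day, 878 genes (5.14%) had a different genotype effect, 662 (3.87%) higher and 216 (1.26%) lower in MC38. In 39 of the 878, both B16 groups lay below the median of all values. The largest differences among myeloid genes were S100a9 (5.39, adjusted p = 0.00449) and S100a8 (4.91, adjusted p = 0.0158). S100a9 differed by 2.15 in MC38 and by -3.24 in B16. Of 14 neutrophil genes 5, of 15 macrophage genes 6 and of 10 type 1 dendritic cell genes 5 had a higher effect in MC38, and 0 of each had a lower one. C1qa fell by 1.99 in B16 and had a difference of -0.33 in MC38 (adjusted p of the difference between effects 0.047). The macrophage median was -0.33 in MC38 and -1.63 in B16. Of 23 cell cycle genes 6 had a lower effect in MC38 and 0 a higher one, Mcm7 among them (-0.70 in MC38, 0.26 in B16, adjusted p = 0.00383). Of the T cell list, 0 of 17 differed between the tumours (4 at an unadjusted p under 0.05), at medians of 1.61 in MC38 and 0.71 in B16, which does not show that the effects were alike. All 13 melanocytic genes had a higher effect in MC38, where 9 of the 13 lay below the median of all values on all 4 arrays. In B16 all 13 fell (median -3.12), so RNA of pigment cells differed between the B16 groups, and its part in these differences was not tested. Without Nrp1-deleted replicate 1 or 2, or control replicate 1 or 2, of MC38, the count of 878 fell to 443, 551, 488 and 419.

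**Figure D4:**
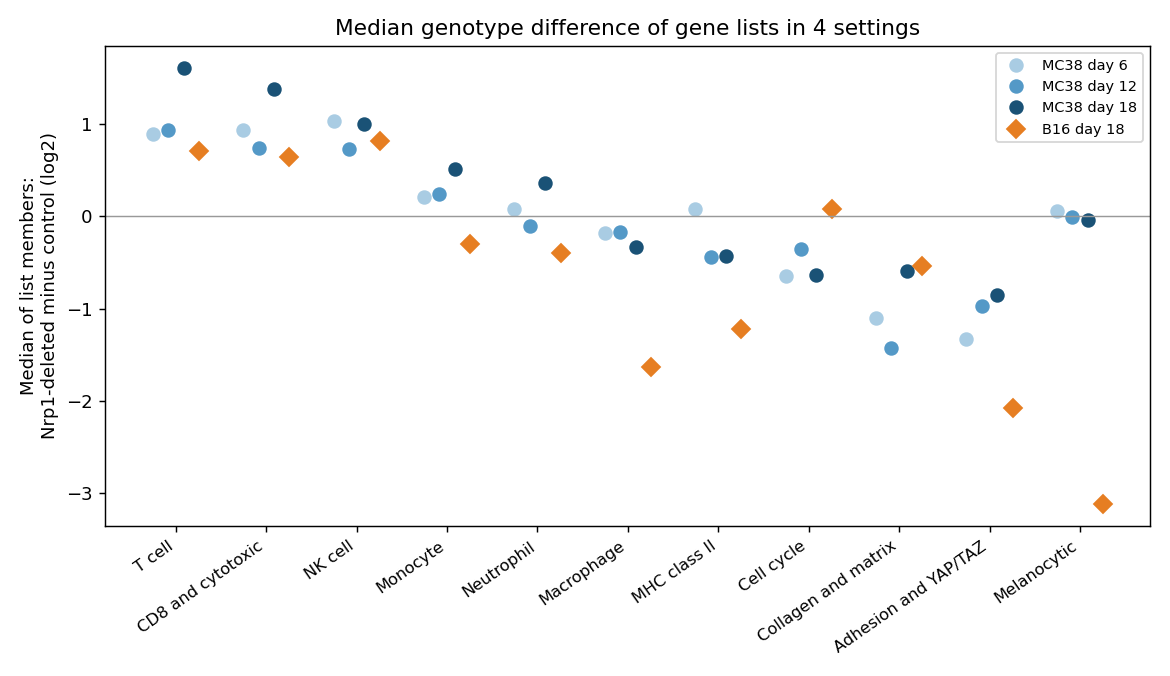
Median log2 difference, Nrp1-deleted minus control, of 11 gene lists (horizontal axis) at MC38 days 6, 12 and 18 (circles, light to dark) and at B16 day 18 (diamonds). The T cell median is 1.61 at MC38 day 18, and the macrophage median is -0.33 there and -1.63 in B16.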

How the data were processed

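Total RNA of CD45+ cells was amplified over repeated cycles, labelled with biotin and hybridised to Affymetrix arrays, per the labels' protocols. The authors deposited log2 values. Their RMA step used Partek 6.6, per the submitters' processing notes, and its settings were not stated. The table holds 45141 probe sets (104 controls), of which 28898 name 1 gene, 551 several and 15692 none here. For each of 17097 genes, the probe set of highest mean over 28 arrays was used. Gene names come from the platform annotation and can be old. The arrays form 3 sets by the shape of their values (quantiles within a set differed by at most 0.0919, log2), as if normalized apart, and both genotypes of a day lay in 1 set. The number of arrays limits the precision.

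With limma 3.58.1 in R 4.3.3, group means of the 12 groups were fitted to all 28 arrays, with an intensity trend, and 2-sided p-values were adjusted over all genes at 0.05. The 16 residual degrees of freedom come from all groups, so the spread of 2 arrays a side is assumed to be like that elsewhere. Differences of effects used the same fit. Of 657 genes in 44 lists, 588 were measured. The samples, lists and tests were chosen with earlier results of these data known. Named genes are, past the threshold and with the higher group's mean above 3.64, the 15 largest rises and 15 largest falls, up to 6 in each direction for each difference of effects, Nrp1, Foxp3 and members of lists. Predicted and clone-named genes were passed over. In simulated data with known changes among 17097 genes, the MC38 day 18 comparison recovered 22.4%, 65.7% and 97.0% of changes of 0.5, 1 and 2 log2 units, with 4.65% of calls false. Promoter windows come from RefSeq, GRCm38.p6. Alternatives covered a filter on dim genes, the treatment of probe sets, scaling, variance models, fits on fewer arrays, a replicate block and leaving out each array.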

Additional observations from a re-analysis of the deposited data

Results flagged for a closer look

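The genotype effect at MC38 day 18 differed from that of another tumour or day in the following genes, by a test of the difference itself in limma. Values are differences of log2 effects, MC38 day 18 minus the other setting, and their causes were not tested.

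Against MC38 day 6, the difference was 2.20 for B3gnt5, 1.49 for Ppp1r10, a phosphatase regulator, 1.42 for Fosl2, 1.40 for Rybp, 1.37 for Nkrf, a repressor of NF-kappaB targets, 1.35 for Nr4a2, -1.52 for Eya4, -1.68 for Slamf6 and -3.49 for Ccl8. Each had an adjusted p of 0.0282, and each lost its call when any 1 of the 4 MC38 day 18 arrays was left out. Against MC38 day 12, Tuba1a differed by 0.76 (adjusted p = 0.0478), and likewise lost its call.

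Against B16 day 18, the 15 rises gave differences of 4.41 for Arg2, 3.67 for Dmkn, 2.64 for Gzmk, 2.13 for Slpi, 2.11 for Vps37b, 2.0 for Arap2, 1.98 for Plcxd2, 1.76 for Gramd3 and 1.73 for Rnf125. The 15 falls gave -2.66 for Col6a1, -1.83 for Thbs2, -1.70 for Col6a2, -1.56 for Eya4 and -1.52 for Dpt. Both B16 means lay below the median of all values (3.64) for Col6a1, Thbs2, Eya4, Dpt and Sertad4, which fell in MC38. A B16 effect near 0 is set by the background there, and these genes are no test of a difference between tumours. Both B16 means were also below the median for Olr1 and Stfa2l1, which rose in MC38. A B16 rise of these could have been seen but a fall could not, so the size of their difference is uncertain. Col6a2 (3.62 in Nrp1-deleted and 4.07 in control hosts) and Shisal2b (3.89 and 3.63) had a B16 mean below the median too, so a fall there would be hard to see. Eya4 also lay below the median in both groups at MC38 day 6. Arg2 had an effect of 2.56 in MC38 and -1.85 in B16.

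Myeloid and inflammatory genes gave 5.39 for S100a9, 4.91 for S100a8, 3.85 for the chemokine Cxcl1, 3.81 for platelet factor 4, Pf4, 3.32 for Mmp8, 2.46 for Hp, 2.44 for Olr1, 2.34 for Stfa2l1, 1.17 for Plac8 and -3.31 for the basophil protease Mcpt8. Pf4 had an effect of -0.35 in MC38 and -4.16 in B16, and Mcpt8 0.55 and 3.87. The receptor kinase Met differed by 4.31, with 1.31 in MC38 and -3.0 in B16.

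Other genes gave 2.35 for Fermt2, 2.29 for B3gnt5, 1.88 for Wwtr1, 1.22 for Fads2, 1.20 for Fosl2, 1.17 for Rybp, 1.08 for Nr4a1, 0.98 for Nr4a2, 0.75 for Tuba1a, -1.44 for Slamf6, -0.97 for Mcm7, -0.77 for Mcm3, -0.69 for Mcm2, -2.0 for Shisal2b, -1.85 for Sertad4 and -1.83 for the ion exchanger Slc24a3. Fermt2 (-1.35), Wwtr1 (-1.49) and Fads2 (-1.25) fell in MC38, so their positive differences mean still lower effects in B16. The largest adjusted p of all 41 genes against B16 was 0.0491. With 1 MC38 day 18 array left out, 17 of the 41 passed in all 4 fits, among them Arg2, Col6a1, S100a9, Met and Pf4, and 8 in none, namely Cxcl1, Fads2, Gzmk, Mcm2, Mcm3, Mcpt8, Rnf125 and Slc24a3.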

How the results depend on the processing

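Few arrays limit these results: 2 a side leave most changes of 0.5 log2 units unseen in the simulation, and calls depend on the spread borrowed from other groups. The 917 genes of MC38 day 18 became 262 to 315 when 1 array was left out, 334 at 2-fold or more, 2011 with array weights and 1862 with the 4 arrays alone. The other 8 alternatives without a block gave 741 to 1169. No called gene named or listed changed direction in any alternative. Of 9820 recomputed gene values 8964 kept their side of the threshold, 581 lost a call and 275 passed newly. The 8964 include genes without a call that stayed uncalled, so they do not measure how stable the calls were.

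The count of 14 genes that differed from day 6 became 3 with means over probe sets, 6 with cyclic loess, 4 with 75th percentile centring and 2 with no trend. It became 26 with array weights and 33 with the 8 arrays of both days. Only 1 of the 3, 14 of the 26 and 6 of the 33 were among the 14, so the genes changed too. The 1 gene that differed from day 12 became 0 with means over probe sets, with each probe set tested, with 75th percentile centring, with no trend, at 2-fold and with an array left out. The 878 genes that differed from B16 became 419 to 551 with an array left out, 588 at 2-fold and 742 to 1301 in the other alternatives without a block. After 75th percentile centring they were 569 higher and 329 lower, and the day 6 genes 2 and 2, whereas cyclic loess left 4 and 2.

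Replicate numbers did not pair the samples. The deviations of same-numbered MC38 day 18 arrays correlated at 0.0591, and those of other settings at -0.276 to 0.196. With a replicate block the limma counts were 517 at MC38 day 18, 0 against day 6, 0 against day 12 and 736 against B16.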
